A study of Oryctolagus cuniculus with 4 samples.

Results

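Cytoplasmic translation factors are the proteins that start, drive and end protein synthesis on the cytoplasmic ribosome. They were taken here as every gene of the deposited table whose symbol begins with EIF1 to EIF6, EEF1, EEF2 or GSPT, or is ETF1. This gave 38 of 13913 genes, each with 1 value in each of 4 single-cell RNA sequencing libraries, and 37 of them passed the filter on low values. Of the 13913 genes, 3706 had no symbol, and any translation factor among those could not be found this way. Libraries were made by the 10x Genomics droplet method with 3′ counting from the ventral epidermis and dermis of rabbit ear hypertrophic scars (HS), 1 tissue per library. All rabbits were female, 10 to 12 weeks old and of genotype WT, the labels name no strain, and tissue was taken 43 days after wounding. The HS group (2 libraries) had scars without treatment. The drug-loaded MNs group (2 libraries) had scars that received drug-loaded microneedles (MNs), 1 application per week for 3 weeks. Their tips, made of the hydrogel GelMA, detach in the skin and carry a peptide prodrug of 5-fluorouracil acetic acid. No group with empty MNs was analysed here, so the drug and the needles cannot be told apart.

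In initiation, eIF4F binds the mRNA cap and unwinds the leader, while eIF3 and eIF2 bring the small subunit and the initiator tRNA to the start codon. Stress kinases slow this step by phosphorylating eIF2, and 4E-binding proteins slow it by occupying the cap-binding protein. Elongation factors then deliver each aminoacyl tRNA and move the ribosome, and release factors free the finished chain at a stop codon. Several of these mRNAs, that of eEF1A among them, belong to the class with a pyrimidine-rich 5′ end whose translation follows mTOR activity. RNA levels, as measured here, do not show translation itself.

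Values are given in units, where 1 unit is 1 part of a library total of 1,000,000. The table is named for FPKM, yet each of its columns summed to 10000, and correction for gene length was not known, so each gene is compared between libraries and not with other genes. Depth was unknown. Genes above 0 numbered 11844 to 12059 per library. Markers matched the labelled tissue, with summed fibroblast collagens and proteoglycans (5 of 6 listed genes in the table) at 22452 to 22929 units in HS and 44488 to 48451 in drug-loaded MNs. HS replicate 1 stood apart from the other libraries, with the lowest value of the 4 in 44.4% of all genes tested. The labels do not say whether the 2 tissues of a group came from separate rabbits. The study's supplement calls the 2 samples of each group biologically independent, without naming the rabbits. The p-values therefore measure only the spread between these libraries.

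No translation factor passed the test between drug-loaded MNs and HS. In limma on log2(value + 1) with Benjamini-Hochberg adjustment, 0 of 37 had an adjusted p under 0.05, against 0.0428% of all 9348 genes tested, and 0 of 37 had an unadjusted p under 0.05, against 8.65% of all genes. Adjusted p-values ran from 0.747 to 0.995. Log2 fold changes of drug-loaded MNs against HS ran from -0.35 for EIF6 to 0.43 for EIF4EBP2, with standard errors of 0.21 to 0.34. Under the main scaling the 95% interval excluded a change of 2-fold in either direction for 35 of the 37 factors. The intervals of EIF4EBP2 (-0.36 to 1.22) and EIF4E3 (-0.35 to 1.16) did not. The lower limit of EEF1A1 was close to that bound, at -0.96. With median-ratio scaling the log2 fold changes were lower, at -0.46 for EEF1A1 and -0.50 for EIF6. Intervals under that scaling are not given, so the 2-fold limit holds for the main scaling only. With 2 libraries against 2, the smallest two-sided p of an exact permutation test is 0.333, and single genes were therefore not tested that way.

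The small differences leaned downwards. The fold change was below 0 in 24 of 37 factors (64.9%), against 35.4% of all genes, and the median log2 fold change was -0.10, against 0.12 over all genes. Both drug-loaded MNs libraries lay below both HS libraries in 8 factors (21.6%), namely EIF6, EIF3H, EEF1A1, EIF4A1, EEF1AKNMT, EIF3D, EIF4A2 and EIF2B2. Over all genes this held for 11.2%. Both drug-loaded MNs libraries lay above both HS libraries in 2 factors (5.41%), EIF4E3 and EIF4ENIF1, against 26.6% of all genes. The values over all genes differed with the level of the genes taken. Among the 1255 genes with a mean of at least 100 units, a limit chosen after the values were seen, the median log2 fold change was 0.0045 and 16.7% lay below HS without overlap. The 19 factors at that level had a median of -0.16, with 16 of 19 below 0 and 6 of 19 below HS without overlap. The 35.4% of all genes below 0 belongs to the main scaling, all levels and all 4 libraries. That share is not given for the other counts below 0 here. Over all genes the median log2 fold change was 0.04 without HS replicate 1 and 0.19 without HS replicate 2. How the values were scaled moved these counts too. With median-ratio scaling the median of all genes was -0.01 in place of 0.12, 31 factors were below 0, 19 lay below HS without overlap against 20.5% of all genes, and 0 lay above HS against 18.4%. Without HS replicate 1, 25 factors were below 0 and 19 lay below the remaining HS library in both drug-loaded MNs libraries, against 30.0% of all genes. The log2 fold change was then -0.20 for EIF6, -0.10 for EIF4A1, -0.08 for EIF3D, -0.06 for EIF2B2 and 0.06 for EIF4ENIF1. Without HS replicate 2, 19 factors were below 0, and EIF4G3, EIF6 and EIF4EBP2 had an unadjusted p under 0.05 in limma, as did 1408 of the 9348 genes.

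**Figure D1:**
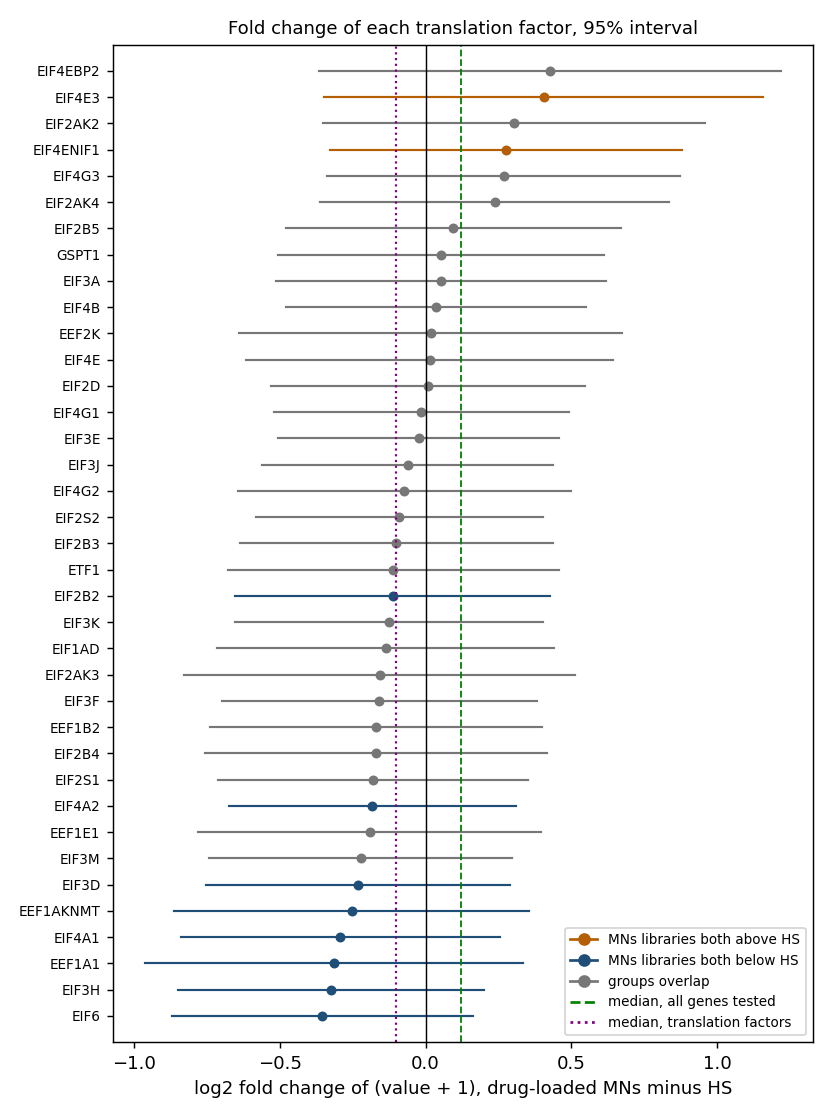
Log2 fold change of (value + 1), drug-loaded MNs minus HS, with its 95% interval for each of the 37 translation factors tested (points and bars), coloured by whether the 2 libraries of each group overlap. All 37 intervals span 0, the median of the factors (-0.10, dotted line) lies left of that of all genes (0.12, dashed line), and 8 factors are drawn as lying below HS in both libraries and 2 as lying above.

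The sum of all 38 factors was 16913 units in HS replicate 1, 15346 in HS replicate 2, 14802 in drug-loaded MNs replicate 1 and 13042 in drug-loaded MNs replicate 2. The drug-loaded MNs sums were thus below both HS sums, and these sums are 1.69%, 1.53%, 1.48% and 1.30% of the library totals. The gene of the elongation factor eEF1A, EEF1A1, alone made up 46.3%, 44.0%, 44.5% and 39.9% of the sum. These sums and shares cover only factors found by symbol, and correction for gene length is not known, so a share does not rank the genes. EEF1A1 was at 7835 and 6755 units in HS and at 6583 and 5198 in drug-loaded MNs. The other 37 factors summed to 9079 and 8591 units in HS and to 8219 and 7844 in drug-loaded MNs. Without EEF1A1 and EEF1B2 the other 36 factors summed to 6639 and 6613 units in HS and to 6169 and 5982 in drug-loaded MNs. The order of the groups stayed the same, and the HS libraries lay close together. In whole-tissue values of this kind, fewer cells of a type and less RNA per cell cannot be told apart.

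No scanning factor itself was covered, since EIF1, EIF1AX and EIF1B were not analysed here, so these values do not speak to start codon recognition. EIF1AD, named for a domain it shares with the scanning factor eIF1A, was at 66.1 and 48.4 units in HS and at 53.9 and 48.9 in drug-loaded MNs. The other libraries lay close together under a high HS replicate 1, with overlap between the groups (log2 fold change -0.14, SE 0.25, adjusted p = 0.922 in limma).

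The eIF2 complex carries the initiator tRNA, and its values overlapped between the groups. EIF2S1, the alpha subunit that the stress kinases phosphorylate, was at 125 and 98.9 units in HS and at 102 and 94.3 in drug-loaded MNs (log2 fold change -0.18, SE 0.23, adjusted p = 0.889). Again HS replicate 1 was highest and the other libraries differed little, and without it the log2 fold change was -0.01. EIF2S2, the beta subunit, was at 189.8 and 215 units in HS and at 193 and 187 in drug-loaded MNs (log2 fold change -0.09, SE 0.21, adjusted p = 0.943). EIF2D, which can deliver tRNA to the ribosome without eIF2, was at 33.7 and 30.9 units in HS and at 32.1 and 32.9 in drug-loaded MNs (log2 fold change 0.01, SE 0.23, adjusted p = 0.995). Its values differed little between any libraries, and drug-loaded MNs lay inside the range of HS.

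The exchange factor eIF2B reloads eIF2 with GTP, and 4 of its 5 subunits were in the table. EIF2B2 was at 32.4 and 29.97 units in HS (31.2 ± 1.69, mean ± SD, n = 2) and at 28.4 and 29.1 in drug-loaded MNs (28.7 ± 0.517). The groups did not overlap, although the nearest libraries were within 1 unit (log2 fold change -0.11, SE 0.23, adjusted p = 0.936). EIF2B3 was at 42.1 and 40.4 units in HS and at 41.3 and 35.7 in drug-loaded MNs, where the second replicate was low and the first lay between the HS libraries. EIF2B4 was at 43.5 and 33.2 units in HS and at 36.2 and 31.3 in drug-loaded MNs, with HS replicate 1 high and overlap between the groups. Their log2 fold changes were -0.10 and -0.17, and that of EIF2B5, the catalytic subunit, was 0.09. The group sums were 139.6 and 128 units in HS, against 132 and 119 in drug-loaded MNs.

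The eIF2 kinases read different stresses, and 3 of the 4 were in the table. EIF2AK4 (GCN2), which senses uncharged tRNA, was at 28.5 and 38.5 units in HS and at 36.5 and 42.2 in drug-loaded MNs (log2 fold change 0.24, SE 0.26, adjusted p = 0.869). EIF2AK2 (PKR), which senses double-stranded RNA, was at 18.95 and 27.5 units in HS and at 31.7 and 25.5 in drug-loaded MNs (log2 fold change 0.30, SE 0.28, adjusted p = 0.84). In both kinases HS replicate 1 was the lowest library, and without it their log2 fold changes were 0.03 and 0.05. EIF2AK3 (PERK), which senses unfolded protein in the endoplasmic reticulum, was at 20.6 and 28.5 units in HS and at 25.3 and 18.5 in drug-loaded MNs (log2 fold change -0.16, SE 0.29, adjusted p = 0.922). Its replicates differed in both groups, with a gap of 0.45 on the log2 scale in HS and 0.43 in drug-loaded MNs.

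The eIF3 complex is the scaffold that holds the small subunit, the initiator tRNA and eIF4F together. Of its listed subunits, 8 of 14 were in the table, and 7 of the 8 had a log2 fold change below 0 (median -0.14), against 35.4% of all genes. EIF3H was at 158 and 154 units in HS (156 ± 2.47) and at 140.3 and 110.4 in drug-loaded MNs (125 ± 21.1). Both drug-loaded MNs libraries lay below the close pair of HS libraries, but they stood further from each other than the first did from HS (log2 fold change -0.32, SE 0.22, adjusted p = 0.773). EIF3D, a subunit that can itself bind the cap of some mRNAs, was at 206 and 166 units in HS (186 ± 28.2) and at 165 and 150.2 in drug-loaded MNs (157 ± 10.1). The groups did not overlap, yet HS replicate 2 and drug-loaded MNs replicate 1 were nearly equal and HS replicate 1 was high (log2 fold change -0.23, SE 0.22, adjusted p = 0.851).

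The eIF3 subunits chosen for the highest means were EIF3K, EIF3F and EIF3A. EIF3K was at 816 and 659 units in HS (738 ± 111) and at 687 and 659 in drug-loaded MNs (673 ± 19.8), a log2 fold change of -0.12 (SE 0.23, adjusted p = 0.922). EIF3F was at 723 and 569 units in HS (646 ± 109) and at 605 and 545 in drug-loaded MNs (575 ± 42.0), a log2 fold change of -0.16 (SE 0.23, adjusted p = 0.901). In both, HS replicate 1 was high and the other libraries were close, with overlap between the groups. EIF3A, the largest subunit, showed the opposite order within HS, at 324 and 453 units (388 ± 91.0), and was at 409.7 and 384 in drug-loaded MNs (397 ± 17.9). HS replicate 1 was the lowest library, and the drug-loaded MNs libraries lay between the HS values (log2 fold change 0.05, SE 0.24, adjusted p = 0.971). EIF3E, EIF3J and EIF3M had log2 fold changes of -0.02, -0.06 and -0.22, and their groups overlapped.

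In the cap-binding complex both helicases had lower values in drug-loaded MNs without overlap and the scaffolds overlapped, and none passed the test. EIF4A1, the helicase that unwinds mRNA leaders, was at 934 and 717 units in HS (825 ± 153) and at 683 and 654 in drug-loaded MNs (668 ± 20.6). The first HS library was far above the rest, and HS replicate 2 was the nearest to drug-loaded MNs (log2 fold change -0.29, SE 0.23, adjusted p = 0.814). EIF4A2, its close paralog, was at 361 and 377 units in HS (369 ± 11.5) and at 343 and 308 in drug-loaded MNs (325 ± 24.7). Here the HS libraries were close, with HS replicate 2 highest, and neither drug-loaded MNs library reached them (log2 fold change -0.18, SE 0.21, adjusted p = 0.877).

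EIF4G1, the scaffold that joins the cap-binding protein, the helicase and eIF3, was at 188 and 225 units in HS (207 ± 26.4) and at 209 and 199 in drug-loaded MNs (204 ± 7.21). EIF4G2, a relative that lacks the site for the cap-binding protein, was at 712 and 974 units in HS (843 ± 186) and at 759.7 and 825 in drug-loaded MNs (792 ± 46.1). For both scaffolds HS replicate 1 was lowest, HS replicate 2 was highest and drug-loaded MNs lay between them (log2 fold changes -0.01 and -0.07, SE 0.22 and 0.24). EIF4E3, a relative of the cap-binding protein, was at 9.17 and 9.34 units in HS (9.25 ± 0.121) and at 16.5 and 9.51 in drug-loaded MNs (13.0 ± 4.96). The groups did not overlap, but only drug-loaded MNs replicate 1 was clearly higher, and replicate 2 stood beside HS (log2 fold change 0.40, SE 0.32, adjusted p = 0.813, and 0.04 without drug-loaded MNs replicate 1). Of the others in this group, EIF4B, EIF4E and EIF4G3 had log2 fold changes of 0.04, 0.01 and 0.27 with overlapping groups. EIF4E1B, an oocyte relative of the cap-binding protein, was at 0.0526 to 0.174 units and was not tested, as the only factor under the filter.

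The 4E-binding proteins compete with eIF4G for the cap-binding protein. EIF4EBP2, a repressor that mTOR inactivates, was at 19.0 and 37.8 units in HS (28.4 ± 13.3) and at 37.8 and 35.1 in drug-loaded MNs (36.4 ± 1.93). Its fold change, the highest of all factors tested, rested on HS replicate 1 alone (log2 fold change 0.43, SE 0.34, adjusted p = 0.813), and it was -0.05 without that library. Without HS replicate 2 it was 0.91. EIF4ENIF1, which carries the cap-binding protein into the nucleus and to mRNA decay bodies, was at 21.6 and 29.4 units in HS (25.5 ± 5.49) and at 29.6 and 31.8 in drug-loaded MNs (30.7 ± 1.53). The groups did not overlap, by less than 1 unit between HS replicate 2 and drug-loaded MNs replicate 1 (log2 fold change 0.28, SE 0.26, adjusted p = 0.84).

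EIF6 keeps the large subunit from joining too early and also takes part in making that subunit. It was at 261 and 209.9 units in HS (236 ± 36.4) and at 183 and 184 in drug-loaded MNs (183 ± 0.699). Both drug-loaded MNs libraries were nearly equal and lay below both HS libraries, which differed from each other by 0.31 on the log2 scale. This was the smallest p of all factors, unadjusted p = 0.15 and adjusted p = 0.747 in limma, for a log2 fold change of -0.35 with a 95% interval of -0.87 to 0.16. EIF5 and EIF5B, which act at the same step, and EIF5A were not analysed here.

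**Figure D2:**
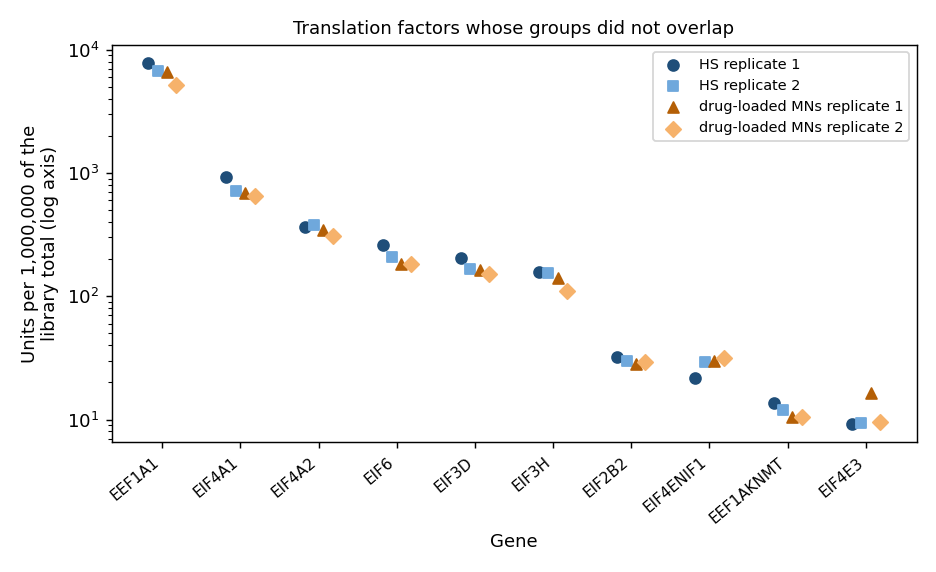
Units per 1,000,000 of the library total (log axis) for the 10 translation factors whose groups did not overlap, with 1 point per library. The 2 drug-loaded MNs libraries lie below both HS libraries in 8 genes, for EIF6 at 183 and 184 units against 209.9 and 261, and above them in EIF4ENIF1 and EIF4E3, where drug-loaded MNs replicate 2 (9.51 units) almost touches HS.

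For elongation, EEF1A1, which brings aminoacyl tRNA to the ribosome, was at 7835 and 6755 units in HS (7295 ± 763) and at 6583 and 5198 in drug-loaded MNs (5891 ± 979). HS replicate 1 was highest and drug-loaded MNs replicate 2 was lowest, and the 2 libraries in the middle were close, so that the groups did not overlap by a narrow margin (log2 fold change -0.31, SE 0.28, adjusted p = 0.836). EEF1B2, which exchanges the nucleotide on eEF1A, was at 2440 and 1978 units in HS (2209 ± 327) and at 2050 and 1862 in drug-loaded MNs (1956 ± 133). The groups overlapped, with HS replicate 1 high (log2 fold change -0.17, SE 0.24, adjusted p = 0.9, and -0.02 without that library). EEF2, EEF1D, EEF1G and EEF1A2 were not analysed here.

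Of the proteins that modify or accompany elongation factors, EEF1AKNMT, a methyltransferase of eEF1A, was at 13.5 and 11.9 units in HS (12.7 ± 1.14) and at 10.6 and 10.4 in drug-loaded MNs (10.5 ± 0.112). The drug-loaded MNs values lay close together and below HS (log2 fold change -0.25, SE 0.26, adjusted p = 0.861). EEF2K, the kinase that switches off eEF2, was at 47.0 and 76.9 units in HS and at 62.2 and 59.6 in drug-loaded MNs. HS replicate 1 was lowest and HS replicate 2 highest, a gap of -0.70 on the log2 scale that left a log2 fold change of 0.02 (SE 0.28, adjusted p = 0.992). EEF1E1, an auxiliary protein of the complex of tRNA synthetases, was at 71.3 and 51.1 units in HS and at 50.1 and 55.5 in drug-loaded MNs. It had the reverse order within HS, with replicate 1 above the other libraries by a gap of 0.47 to replicate 2 (log2 fold change -0.19, SE 0.25, adjusted p = 0.891).

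The release factors differed by replicate number more than by group. GSPT1 (eRF3a), the GTPase of termination, was at 205 and 273 units in HS (239 ± 48.1) and at 226 and 268 in drug-loaded MNs (247 ± 29.6). ETF1 (eRF1), which reads the stop codon, was at 189.8 and 241 units in HS (215 ± 36.3) and at 174 and 225 in drug-loaded MNs (199.6 ± 36.2). In each gene both first replicates were low and both second replicates high, with overlap between the groups (log2 fold changes 0.05 and -0.11, SE 0.24 for both, adjusted p = 0.97 and 0.938). The labels do not say that replicates of the same number were handled together.

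**Figure D3:**
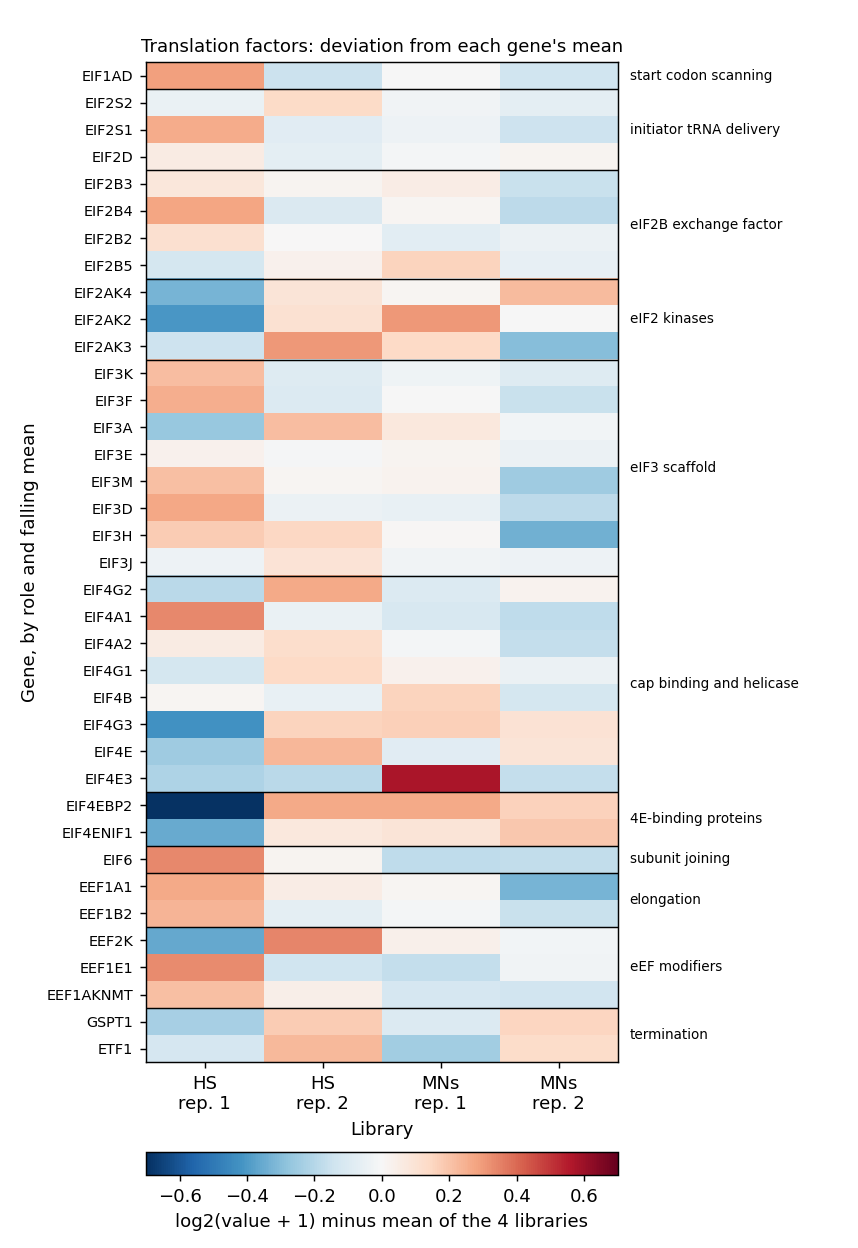
Deviation of log2(value + 1) from the mean of the 4 libraries for each of the 37 factors tested (rows, grouped by role) in each library (columns), on a colour scale from -0.7 to 0.7. The column of HS replicate 1 holds both red and blue cells, being highest in 18 factors and lowest in 14, and drug-loaded MNs replicate 2 is mostly blue, being lowest in 16.

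The spread between the HS libraries was larger than most differences between the groups. The median absolute gap between HS replicates was 0.31 on the log2 scale, against 0.14 between drug-loaded MNs replicates and a median absolute fold change of 0.16. The HS gap exceeded the fold change in 28 of 37 factors, and the drug-loaded MNs gap did so in 20 of 37. Over all genes tested these 3 medians were 0.33, 0.23 and 0.23. HS replicate 1 was the highest of the 4 libraries in 18 factors (48.6%), against 18.8% of all genes, and the lowest in 14 (37.8%), against 44.4% of all genes. Drug-loaded MNs replicate 2 was the lowest in 16 factors (43.2%), against 20.2% of all genes. HS replicate 1 lay between other libraries in only 5 factors, EIF2AK3, EIF2S2, EIF4A2, EIF4B and ETF1.

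The eIF3, eIF2B, cap-binding and elongation modifier groups each had factors on both sides of this departure. HS replicate 1 was highest for 6 of 8 eIF3 subunits, 3 of 4 eIF2B subunits, both elongation factors, EIF6, EIF4A1, EIF2S1, EIF2D, EIF1AD, EEF1E1 and EEF1AKNMT. It was lowest for both 4E-binding proteins, 2 of 3 eIF2 kinases, 5 of 8 tested cap-binding factors, EIF3A, EIF3J, EIF2B5, EEF2K and GSPT1. The median gap of HS replicate 1 to HS replicate 2 was 0.31 in the 18 and -0.44 in the 14. These sets were formed from the values themselves and are a description. With HS replicate 1 left out, 12 of the 18 and 9 of the 14 had a log2 fold change below 0, with medians of -0.04 and -0.09. The median of all genes was then 0.04, and the share of all genes below 0 is not given for that setting.

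**Figure D4:**
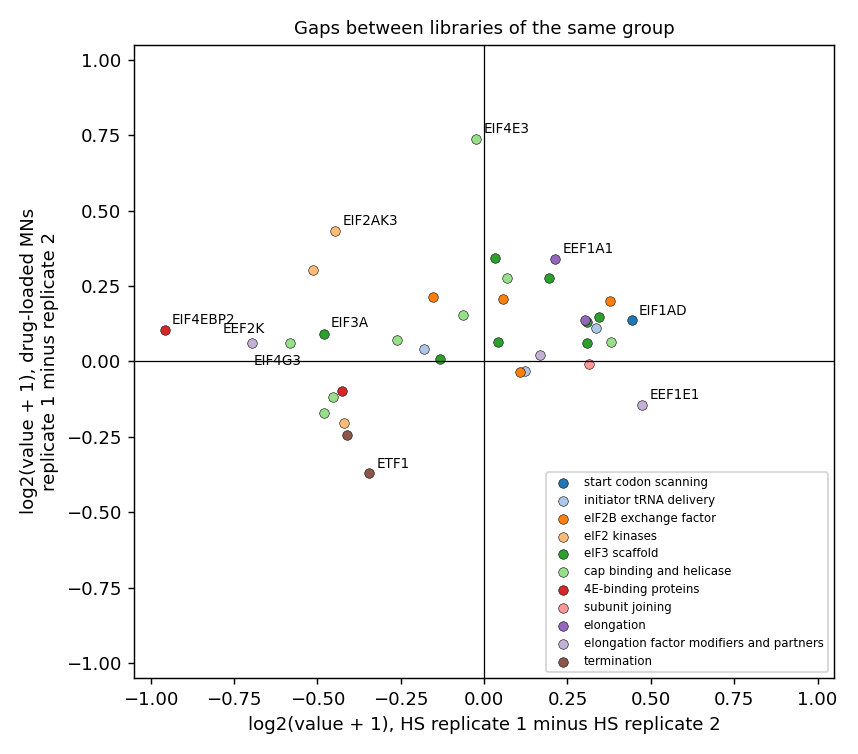
Log2 gap between HS replicates (horizontal axis) and between drug-loaded MNs replicates (vertical axis) for each of the 37 factors tested, coloured by role. Points spread further along the HS axis, from -0.96 for EIF4EBP2 to 0.47 for EEF1E1, than along the other, where the median absolute gap is 0.14 and EIF4E3 stands out at 0.74.

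Ratios within a library hardly depend on its total. For 3 of 9 listed pairs both genes were in the table. The log2 ratio of EIF4A1 to EIF4A2 stood at 1.37 and 0.92 in HS, against 0.99 and 1.08 in drug-loaded MNs, so the groups overlapped and the difference of -0.11 was smaller than the pooled SD of 0.23 and was 0.11 without HS replicate 1. The log2 ratio of EIF4G1 to EIF4G2 stood at -1.92 and -2.11 in HS, against -1.86 and -2.05 in drug-loaded MNs, again with overlap. The log2 ratio of GSPT1 to ETF1 stood at 0.11 and 0.18 in HS, against 0.37 and 0.25 in drug-loaded MNs. These groups did not overlap, and the difference of 0.16 was over the pooled SD of 0.07, and no test of this ratio was run. Of the further ratios chosen after the values were seen, EIF3F to EIF3A was 1.16 in HS replicate 1 and 0.33, 0.56 and 0.50 in the other libraries. EIF3K to EIF3A was 1.33 in HS replicate 1 and 0.54, 0.74 and 0.78 in the others. These ratios were formed because HS replicate 1 was high for EIF3F and EIF3K and low for EIF3A, so they only restate those values. EEF1A1 to EEF1B2 stood at 1.68 and 1.77 in HS, against 1.68 and 1.48 in drug-loaded MNs, with overlap.

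**Figure D5:**
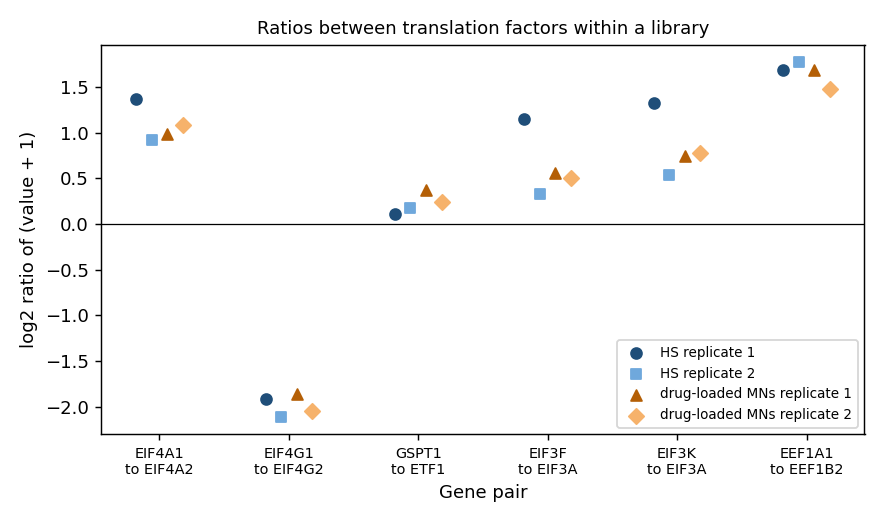
Log2 ratio of (value + 1) between pairs of translation factors, with 1 point per library and the first 3 pairs from the list of the analysis. GSPT1 to ETF1 is the only pair without overlap (0.11 and 0.18 in HS, 0.37 and 0.25 in drug-loaded MNs), and HS replicate 1 stands above the rest in EIF3F to EIF3A (1.16) and EIF3K to EIF3A (1.33).

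Genes that work beside these factors were described from lists, and none in them passed an adjusted p of 0.05. Over all genes tested 35.4% had a fold change below 0, and the median log2 fold change was 0.12. Of 9 partners and recycling factors, 7 had a fold change above 0 and 2 below (median log2 fold change 0.09), among them ABCE1, which splits ribosomes after termination, at 112 and 122 units in HS, against 124 and 124.5 in drug-loaded MNs. Of 15 cytosolic tRNA synthetases, 7 were above 0 and 8 below (median -0.03). Without overlap, 5 lay below HS, against 11.2% of all genes, and 2 above, against 26.6%. Of 4 mitochondrial translation factors, 3 were above 0 (median 0.10). The 21 ribosomal protein genes found by symbol in the table had a median of -0.08, close to that of the translation factors, with 13 below 0. Of the 21, 8 lay below HS without overlap, against 11.2% of all genes, and 1 above, against 26.6%. The ribosomal protein sums were 82442 and 92551 units in HS, against 79636 and 83094 in drug-loaded MNs. HS replicate 1 was not the highest library in that sum, unlike in the sum of the translation factors.

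In the lists for mTOR control and stress response, 2 genes had an unadjusted p under 0.05 in limma, 1 in each list, against 8.65% of all genes. DDIT4, an inhibitor of mTOR complex signalling, was at 296 and 303 units in HS and at 116 and 165 in drug-loaded MNs (log2 fold change -1.11, SE 0.24, unadjusted p = 0.00227, adjusted p = 0.314 in limma). NUPR1, a stress gene downstream of eIF2 phosphorylation, was at 252.1 and 252 units in HS and at 119 and 112 in drug-loaded MNs (log2 fold change -1.12, SE 0.21, unadjusted p = 0.000802, adjusted p = 0.264). The drug-loaded MNs values were far below the close pair of HS libraries in either gene, and neither passed the adjusted threshold. The rest of the mTOR and MNK list (4 tested of 12 listed) and of the stress response list (6 tested of 12) did not show an unadjusted p under 0.05. In the mTOR and MNK list 1 gene was above 0 and 3 below (median log2 fold change -0.13). In the stress response list 1 was above and 5 below (median -0.16), where 35.4% of all genes were below. MKNK1 was at 14.3 and 15.6 units in HS and at 22.2 and 20.55 in drug-loaded MNs (log2 fold change 0.49, SE 0.25, adjusted p = 0.686). SLC7A11 had a log2 fold change of 0.42 (SE 0.34, adjusted p = 0.817). ASNS, asparagine synthetase, was at 27.1 and 23.8 units in HS and at 18.5 and 15.9 in drug-loaded MNs (log2 fold change -0.54, SE 0.25, adjusted p = 0.624).

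Markers of several cell types and states differed between the groups or between single libraries. For the counts above and below 0, 35.4% of all genes tested were below 0, and their median log2 fold change was 0.12. Fibroblast markers (5 of 5 tested above 0, median log2 fold change 0.90) and macrophage markers (7 of 7 above 0, median 1.22, sums of 120 to 129.9 units in HS and 283 to 286 in drug-loaded MNs) were higher in both drug-loaded MNs libraries. Unadjusted p was under 0.05 in limma for all 5 fibroblast and all 7 macrophage markers, against 8.65% of all genes tested. None of these markers passed an adjusted p of 0.05. Genes of the mitochondrial genome held 2.75% and 2.80% of all units in HS, against 4.37% and 4.58% in drug-loaded MNs, with 4 of 13 listed at 0 in all libraries. Of the 9 tested, 7 had an unadjusted p under 0.05 in limma. An adjusted p under 0.05 was reached by 1 of the 9, against 0.0428% of all genes tested. Basal keratinocyte markers (5 of 6 in the table) summed to 8265 and 5718 units in HS and to 7678 and 4040 in drug-loaded MNs. The keratins KRT5 and KRT14 made up most of this sum, while TP63 and COL17A1 were lowest in HS replicate 1. Dissociation response genes (4 of 9 in the table), which are induced when tissue is digested, summed to 10884 and 17369 units in HS. In drug-loaded MNs they summed to 11201 and 11847, so HS replicate 2 stood apart from the others. All 4 had a log2 fold change below 0 (median -0.15). Suprabasal keratinocyte markers (3 of 6 in the table) summed to 35935 and 50732 units in HS and to 30455 and 39833 in drug-loaded MNs. Endothelial markers summed to 189.4 to 191 units in HS and 146 to 194 in drug-loaded MNs, although 4 of 5 had a log2 fold change above 0 (median 0.37, 1 with an unadjusted p under 0.05). Mast cell markers summed to 36.5 to 101 units in HS and 58.2 to 101.1 in drug-loaded MNs, with 2 of 3 above 0 (median 0.31, 1 with an unadjusted p under 0.05). Cycling genes summed to 161 to 286 units in HS and 169.6 to 386 in drug-loaded MNs, with 5 of 5 above 0 (median 0.39). The part of these markers in the values of the translation factors was not tested.

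Gene models limit some of these values. In RefSeq annotation of mOryCun1.1, which is not the assembly of the table, 37 of 38 factors were matched and 6 overlapped another protein-coding gene. These were EIF3F with NLRP10, EIF3M with CCDC73, EIF1AD with BANF1, EIF4A2 with RFC4, EIF3K with MAP4K1, and EIF4E3 with GPR27 and FOXP1. These overlaps were taken from gene start and end alone, so the pairs need not share a strand or an exon. Whether reads were counted by strand was not given in the sources used here, so reads of such pairs may not be separated. EEF1A1 and EIF4A1 have near-identical copies in mammalian genomes, which makes their levels uncertain in the same way.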

How the data were processed

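Single-cell RNA sequencing was measured in 4 libraries, 2 per group, with groups taken from the labels. Per the labels, the authors processed reads with Cell Ranger 2.1.1, and the submitters' processing notes name the build mm10, whereas the gene identifiers are those of rabbit; the study's methods name Seurat and a correction for technical differences, and whether it had been applied to the deposited values is not given in the sources used here. The same holds for doublets and for how cells were combined. The deposited values carry the name FPKM, but each column totals 10000, so they were treated as relative expression. Reads could not be recovered, since only 18.6% to 21.7% of 885 to 1083 low values per library were whole multiples of the smallest step to within 0.1. Depth is therefore unknown and no counting interval was made; the number of libraries limits the precision.

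Each library was rescaled to 1000000, the 9348 genes averaging 1 unit or more were kept, and limma's lmFit and eBayes, with a trend, were run on log2(value + 1) (version 3.58.1, R 4.3.3). Tests were two-sided with Benjamini-Hochberg adjustment over all genes tested and a threshold of 0.05. Such fold changes understate changes of low genes. The script was tested on simulated data. No 2 libraries held identical values, and 0 columns were left unmapped. Values were given for up to 3 factors of highest mean per role, for up to 6 per direction of smallest p among those without overlap, and for ratio pairs, 30 in all. EIF2B5, EIF3E, EIF3J, EIF3M, EIF4B, EIF4E, EIF4G3 and EIF4E1B were named after their values were seen. The factors, lists and tests were chosen with earlier results of these data known. Same-numbered libraries deviated together with r = 0.222 across genes, which are not independent replicates. Alternatives were other scalings, pseudocounts (0.1 and 5), filters, priors, a replicate block and leaving out each library.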

Additional observations from a re-analysis of the deposited data

How the results depend on the processing

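Over 14 alternatives no translation factor passed an adjusted p of 0.05 (smallest 0.266), although the number of genes called over the whole table ranged from 0 to 241. Leaving out each library in turn gave 0 to 3 factors at an unadjusted p under 0.05, and the other alternatives gave 0. The median log2 fold change of the factors was -0.242 with median-ratio scaling and -0.103 to -0.044 with a library left out. The 8 factors below HS without overlap became 19 with median-ratio scaling, 15 with quantile normalization, 13 with a total without abundant genes, and 10 to 19 with a library left out. The share of all genes, 11.2% as reported, became 20.5%, 20.8%, 11.7% and 18.2% to 30.0%. The 2 above HS became 0, 0 and 1 with those scalings and 3 to 14 with a library left out, where the share of all genes, 26.6% as reported, was 18.4%, 16.7%, 26.9% and 34.7% to 54.2%.

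Of 30 named factors tested, 14 kept their direction throughout, 10 of them lower (EEF1A1, EEF1AKNMT, EEF1B2, EIF2B2, EIF2S1, EIF3D, EIF3H, EIF4A1, EIF4A2 and EIF6) and 4 higher (EIF2AK2, EIF2AK4, EIF4E3 and EIF4ENIF1). The other filters, other priors and the replicate block returned the fold change as reported, so they could not turn a sign. A factor without overlap between the groups cannot change direction when a library is left out. All of the 14 but EEF1B2, EIF2S1, EIF2AK2 and EIF2AK4 were of that kind. Several of the 14 came near 0 with a library left out. Without HS replicate 1 the log2 fold change was -0.0115 for EIF2S1, -0.0179 for EEF1B2, 0.027 for EIF2AK4 and 0.0468 for EIF2AK2, and without drug-loaded MNs replicate 1 it was 0.0354 for EIF4E3. With median-ratio scaling the log2 fold change turned to -0.13 for EIF2D, -0.0923 for EIF3A, -0.0919 for GSPT1 and -0.12 for EEF2K. With quantile normalization it was -0.12 for EIF2D and -0.0707 for EEF2K. Median-ratio scaling divides all values of a library by the same factor, and with it the median of all genes moved from 0.121 to -0.0102. With quantile normalization that median was -0.0202, and the cause of the sign changes there was not tested. With a library left out, log2 fold changes that changed sign ran from -0.43 to 0.0452 for EEF1E1, -0.33 to 0.37 for EEF2K, -0.36 to 0.0842 for EIF1AD, -0.38 to 0.0665 for EIF2AK3, -0.20 to 0.0018 for EIF2B3, -0.36 to 0.0187 for EIF2B4, -0.0522 to 0.0709 for EIF2D, -0.18 to 0.0006 for EIF2S2, -0.19 to 0.29 for EIF3A, -0.33 to 0.0136 for EIF3F, -0.28 to 0.03 for EIF3K, -0.0528 to 0.91 for EIF4EBP2, -0.14 to 0.12 for EIF4G1, -0.30 to 0.15 for EIF4G2, -0.30 to 0.0742 for ETF1 and -0.15 to 0.26 for GSPT1.

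With the replicate number as a replicate block, 241 genes were called in place of 4, 0 translation factors passed (smallest adjusted p 0.687), and their median stayed at -0.101. The labels give these libraries only a shared number. Count models were not run, since reads could not be recovered. A library left alone in its group was taken to vary as much as the others do.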
